A study of Mus musculus with 17 samples.

Results

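The nuclear genes of the mitochondrial respiratory chain and ATP synthase were followed through RNA polymerase II occupancy maps of mouse macrophages. Protein-coding genes on nuclear chromosomes of GRCm38 were chosen by symbol alone: those starting with Ndufa, Ndufb, Ndufc, Ndufs or Ndufv, the 4 genes Sdha to Sdhd, those starting with Uqcr, with Cox4 to Cox8, or with Atp5. This gave 96 of 21887 protein-coding genes. By function they comprised 37 subunits of complex I (7 core and 30 accessory), 4 of complex II, 8 of complex III, 18 of complex IV, 17 of ATP synthase and 12 assembly or related factors that share the symbols.

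Polymerase was immunoprecipitated from bone marrow-derived macrophages that lacked N4bp1 (knockout, KO) or were wild type (WT). Cells of both genotypes had received R837 for 2, 4 or 6 h or no treatment, which makes 8 groups with 2 libraries each. N4BP1 is known to restrain inflammatory signalling until caspase-8 cleaves it, and R837 (imiquimod) activates the RNA sensor TLR7. Which part of N4bp1 had been removed, the ages of the mice and whether the 2 libraries of a group came from different cultures or animals are not given in the labels, so p-values rest on the spread between libraries alone, and that spread may be technical. An input library is listed and was not used here.

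The respiratory chain passes electrons from NADH (complex I) and succinate (complex II) through ubiquinone, complex III and cytochrome c to oxygen at complex IV, and ATP synthase uses the proton gradient so formed. Most subunits are encoded in the nucleus, and a small set in mitochondrial DNA, which another polymerase transcribes. Macrophages stimulated through Toll-like receptors are known to turn from respiration to glycolysis, and imiquimod itself is known to inhibit complex I.

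Each deposited list gave the polymerase summits of 1 library with a score. To compare lists of unequal length, only the 8394 best summits of each were kept, as many as the shortest one holds, and a gene took the rank of the best summit in its span extended by 1 kb on both sides. Rank 1 is the top summit, so a small number means a prominent polymerase peak. The rank score is log2 of 8394 plus 1, divided by that rank, and 0 where a gene had no summit among those 8394. It describes a place within a list, not an amount of polymerase. The deposited lists held 8394 to 29760 summits, and read depth is unknown because they hold no counts. Replicate 2 of KO at 6 h stood apart. It shared at most 0.0546% of its distinct score values with any other list, where the other lists shared 15.2% to 81.8% with their closest list, and its top score was 563.5, against at most 320.4 elsewhere. Codes in the deposited peak names put untreated and 2 h libraries in one series, 4 h in another and 6 h in yet another, so what differs between series cannot be told apart from 4 h and 6 h. Of 9 macrophage markers, 7 to 8 had a summit in each treated list and 8 in each untreated list. B cell, mast cell and erythroid markers had none in any list. Of the other 4 types, at most 2 markers had one in a treated list (dendritic cells, summed rank score 0.37 to 5.15 treated and 0.37 to 1.61 untreated) and at most 1 in an untreated list.

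Promoter sequences were at hand for 78 of the 96 genes, as 300 bases from 250 before to 50 after an annotated start (RefSeq, GRCm38.p6). The 6 shown here stand for patterns described further on. Ndufs8 (chr19:3912725-3913024, minus strand) had the highest mean rank score of all 96 genes. Atp5j (chr16:84834927-84835226, minus) faces Gabpa, the gene of the DNA-binding subunit of GABP, itself a factor that acts on respiratory genes. Of the 2 annotated starts of Atp5j, the one nearest to most of its summits is shown. Sdhd (chr9:50603800-50604099, minus) faces Timm8b. Atp5g2 (chr15:102670998-102671297, minus) and Ndufv2 (chr17:66101510-66101809, minus) had fewer summits after R837, and Cox7a1 (chr7:30183921-30184220, plus) is an isoform known from muscle. Capitals mark matches, on either strand, to motifs of NRF1, ETS factors such as GABP, YY1, Sp1, NF-Y, the TATA box and NF-kB, the shorter of which are spelled out after the sequences. All run 5′ to 3′ on the strand of the gene.
Ndufs8: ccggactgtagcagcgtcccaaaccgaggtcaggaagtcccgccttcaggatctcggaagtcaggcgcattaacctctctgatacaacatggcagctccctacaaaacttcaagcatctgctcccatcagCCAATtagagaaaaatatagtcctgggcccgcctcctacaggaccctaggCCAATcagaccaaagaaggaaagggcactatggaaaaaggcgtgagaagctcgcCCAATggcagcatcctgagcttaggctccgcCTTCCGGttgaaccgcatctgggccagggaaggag
Atp5j: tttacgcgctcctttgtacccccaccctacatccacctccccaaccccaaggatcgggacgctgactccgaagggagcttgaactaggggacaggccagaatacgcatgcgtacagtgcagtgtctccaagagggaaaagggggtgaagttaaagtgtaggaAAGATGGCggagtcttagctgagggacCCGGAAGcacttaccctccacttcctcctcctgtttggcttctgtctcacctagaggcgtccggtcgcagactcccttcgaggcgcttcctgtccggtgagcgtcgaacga
Sdhd: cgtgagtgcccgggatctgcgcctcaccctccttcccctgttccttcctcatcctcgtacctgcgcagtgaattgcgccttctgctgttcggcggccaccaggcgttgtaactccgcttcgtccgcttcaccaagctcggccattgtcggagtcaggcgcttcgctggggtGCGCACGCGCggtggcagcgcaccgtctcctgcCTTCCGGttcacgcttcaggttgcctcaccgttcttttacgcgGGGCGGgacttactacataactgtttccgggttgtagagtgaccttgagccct
Atp5g2: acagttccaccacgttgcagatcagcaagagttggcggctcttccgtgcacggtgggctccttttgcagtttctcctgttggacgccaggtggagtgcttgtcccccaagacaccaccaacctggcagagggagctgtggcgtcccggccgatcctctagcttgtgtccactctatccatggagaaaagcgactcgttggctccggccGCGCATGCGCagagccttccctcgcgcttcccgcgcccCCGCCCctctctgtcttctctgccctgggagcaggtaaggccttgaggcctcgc
Ndufv2: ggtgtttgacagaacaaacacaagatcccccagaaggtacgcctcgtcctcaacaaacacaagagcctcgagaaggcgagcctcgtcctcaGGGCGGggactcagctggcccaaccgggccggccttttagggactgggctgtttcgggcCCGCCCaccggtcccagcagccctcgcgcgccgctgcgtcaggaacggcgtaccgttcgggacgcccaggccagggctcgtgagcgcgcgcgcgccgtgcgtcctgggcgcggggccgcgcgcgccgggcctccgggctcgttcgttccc
Cox7a1: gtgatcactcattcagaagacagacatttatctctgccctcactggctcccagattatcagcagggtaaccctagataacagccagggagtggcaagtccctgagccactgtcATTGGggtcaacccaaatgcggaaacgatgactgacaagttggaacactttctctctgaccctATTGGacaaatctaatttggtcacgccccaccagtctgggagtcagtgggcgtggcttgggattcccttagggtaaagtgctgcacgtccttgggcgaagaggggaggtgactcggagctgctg

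In the Sdhd promoter the capitals mark an NRF1, an ETS and an Sp1 match. Atp5g2 holds a palindromic NRF1 match and an Sp1 match, Atp5j a YY1 and an ETS match, and Ndufs8 an ETS match and 3 CCAAT boxes. Ndufv2 holds only Sp1 matches and Cox7a1 only CCAAT boxes. Among the 78 respiratory genes with a promoter, the NRF1 motif was found in 24.4%, against 7.17% of 17492 genes. The ETS motif, CCGGAAG, was found in 24.4% against 12.9%. The YY1 motif, AAGATGGC, was found in 14.1% against 3.57%. The general promoter motifs were about as frequent as elsewhere: Sp1, searched as GGGCGG, in 44.9% against 49.2%, and the NF-Y box, searched as CCAAT, in 43.6% against 42.3%. The TATA box, searched as TATAAA, was found in 10.3% against 14.8%, and the NF-kB motif in 1.28% (Sdhb alone) against 1.86%. A gene counted once if any of its starts held the motif, with on average 1.06 starts per respiratory gene and 1.22 per gene overall. A match is a string of letters and not evidence that a factor binds there.

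Many of these promoters face a neighbour. Of the 78 genes, 23 (29.5%) had the start of a gene on the other strand within 1 kb upstream or overlapping head to head, compared with 8.66% of all 17492 genes. Such pairs were Sdhd with Timm8b, which encodes a mitochondrial import chaperone, Ndufa7 with the ribosomal protein gene Rps28, Ndufb5 with the mitochondrial ribosomal protein gene Mrpl47, and Uqcrh with Lrrc41. For these genes a polymerase summit belongs to a shared promoter, and the files give no strand to divide it.

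Polymerase summits of respiratory genes sat at promoters. Over the 16 shortened lists, the 96 genes had a best summit in 719 gene-library pairs, and in 593 of these the gene's start was known. Of those, 93.1% lay within 500 bp of the gene's own start, where 71.2% of the pairs did over all genes. The search covered the gene and 1 kb on both sides, so in a short gene the best summit lies near the start. Some of these genes are short, such as Atp5k (1154 bp) and Cox5b (1902 bp). Gene length was not matched, so the 2 shares cannot be read as a difference in promoter use. The median position was 72 bp downstream of the start (quartiles −27 and 124), and 84 bp over all genes. Within 500 bp lay 92.3% of summits in treated libraries (median 71 bp) and 94.6% in untreated libraries (median 73 bp).

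**Figure D1:**
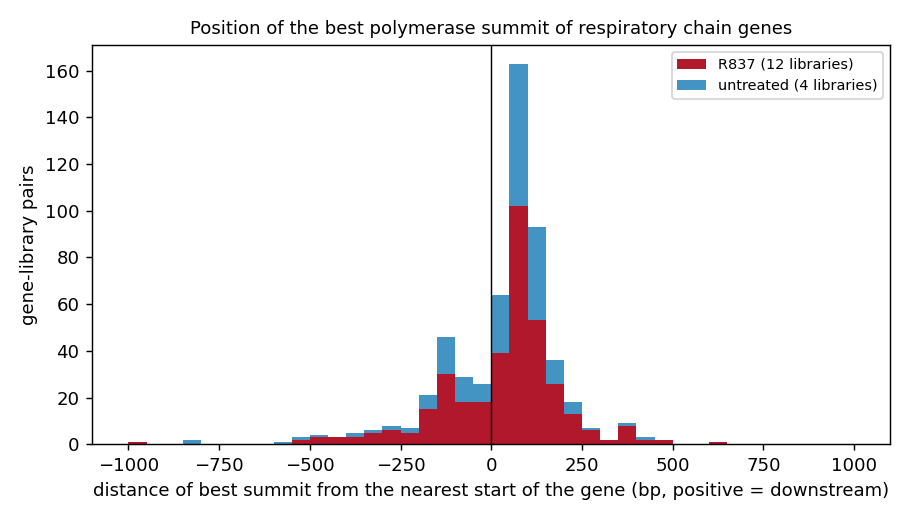
Distance (bp) of the best summit from the nearest annotated start of the gene, in 50 bp bins, counted over gene-library pairs with a known start and stacked for the 12 R837 libraries and the 4 untreated libraries. Pairs farther than 1000 bp away are not drawn. In both sets the counts peak just downstream of the start, with a lower mode upstream.

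The peak in that plot of distances lies just downstream of the start, and the lower mode upstream holds genes such as Sdhd, whose 10 best summits lay 113 to 272 bp upstream, toward Timm8b. Of the 719 best summits 52.6% also lay in the region of another protein-coding gene, compared with 34.5% over all genes. Among the 74 genes tested below, 31 shared every best summit, 36 shared none and 7 some. A few best summits were not at the gene's own promoter. That of Ndufb6 lay 9624 to 9781 bp downstream of its start in 15 of 16 lists, in the regions of Smim27 and Topors. That of Ndufb10 lay 1595 to 2922 bp downstream in 11 of 14 lists, in the region of the ribosomal protein gene Rps2.

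Most of these genes carried a polymerase summit in resting macrophages. A summit among the 8394 best was present for 61 and 66 of 96 genes in untreated KO libraries and for 60 and 62 in untreated WT libraries, which is 62.5% to 68.8%. Over all protein-coding genes the share in those libraries was 29.4% to 30.6%. After 2 h of R837 the numbers were 52 and 25 in KO and 28 and 27 in WT. At 4 h they were 48 and 47 in KO and 34 and 45 in WT, and at 6 h 45 and 58 in KO and 43 and 18 in WT. Every treated library thus held fewer of the 96 genes than every untreated one, 18.8% to 60.4% against 62.5% to 68.8%. The same held over all genes, with 12.3% to 26.9% in treated and 29.4% to 30.6% in untreated libraries. Respiratory genes made up 0.668% to 1.04% of the genes with a summit in treated libraries and 0.914% to 0.987% in untreated ones. Summits within 1 kb of any gene end were 33.5% to 58.4% of the 8394 best in treated libraries and 62.0% to 64.8% in untreated ones. The same comparison with 1 rank per gene is given after the single genes.

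**Figure D2:**
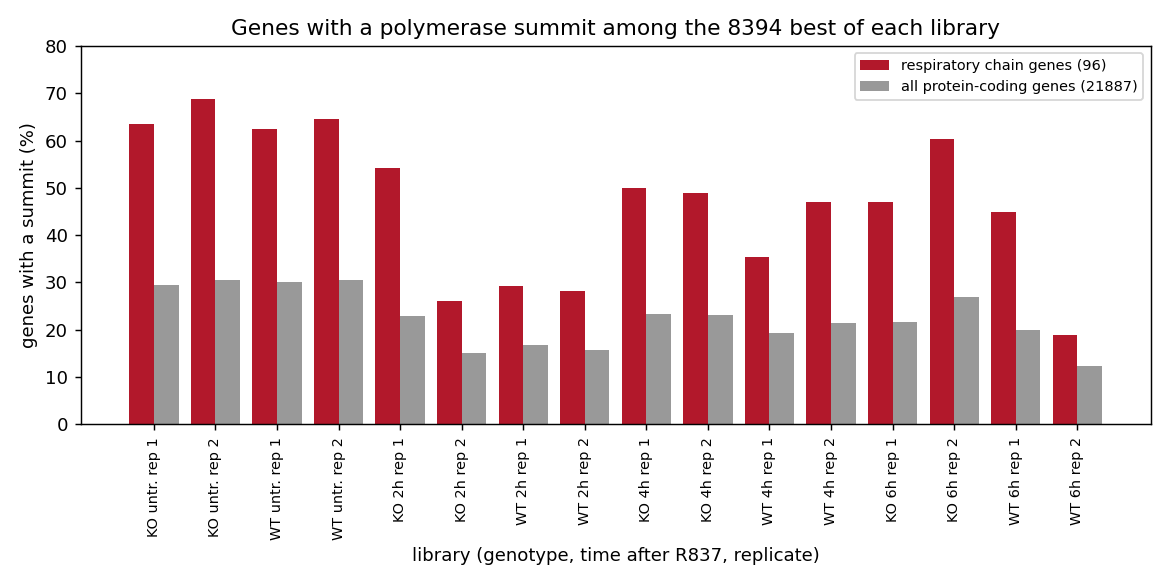
Share of genes (%) with a summit among the 8394 best of each library, for the 96 respiratory chain genes and for all 21887 protein-coding genes, with libraries ordered by time after R837 and KO left of WT. Every treated library lies below the 4 untreated ones in both sets, and WT 6 h replicate 2 is lowest with 18.8% and 12.3%.

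Bars for respiratory genes stand above those for all genes in each of the 16 libraries of the coverage plot, and the 2 sets go up and down together across libraries. Replicates differed widely at 2 h in KO (52 and 25 genes) and at 6 h in WT (43 and 18).

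The complexes differed in how many of the genes chosen by symbol were marked. The cutoff for testing was a summit in 2 or more lists. All 4 subunits of complex II, all 8 of complex III, all 17 of ATP synthase and all 7 core subunits of complex I met it. So did 24 of 30 accessory subunits of complex I, 9 of 18 genes of complex IV and 5 of 12 assembly or related factors. Over all protein-coding genes 8475 of 21887 met it. The complex IV genes that missed it include Cox4i2, Cox6a2, Cox8b, Cox6b2, Cox7b2 and Cox8c, isoforms known from lung, muscle or testis. The count for complex IV thus depends on which isoforms the symbols took in. An average treated list held 2.2 of the 4 complex II genes and an average untreated list 3.8. For complex III the averages were 3.1 and 6.2, for complex IV 3.2 and 7.0, and for ATP synthase 9.4 and 13.8. Core subunits of complex I averaged 4.9 in treated and 7.0 in untreated lists, and accessory subunits 13.8 and 21.

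**Figure D3:**
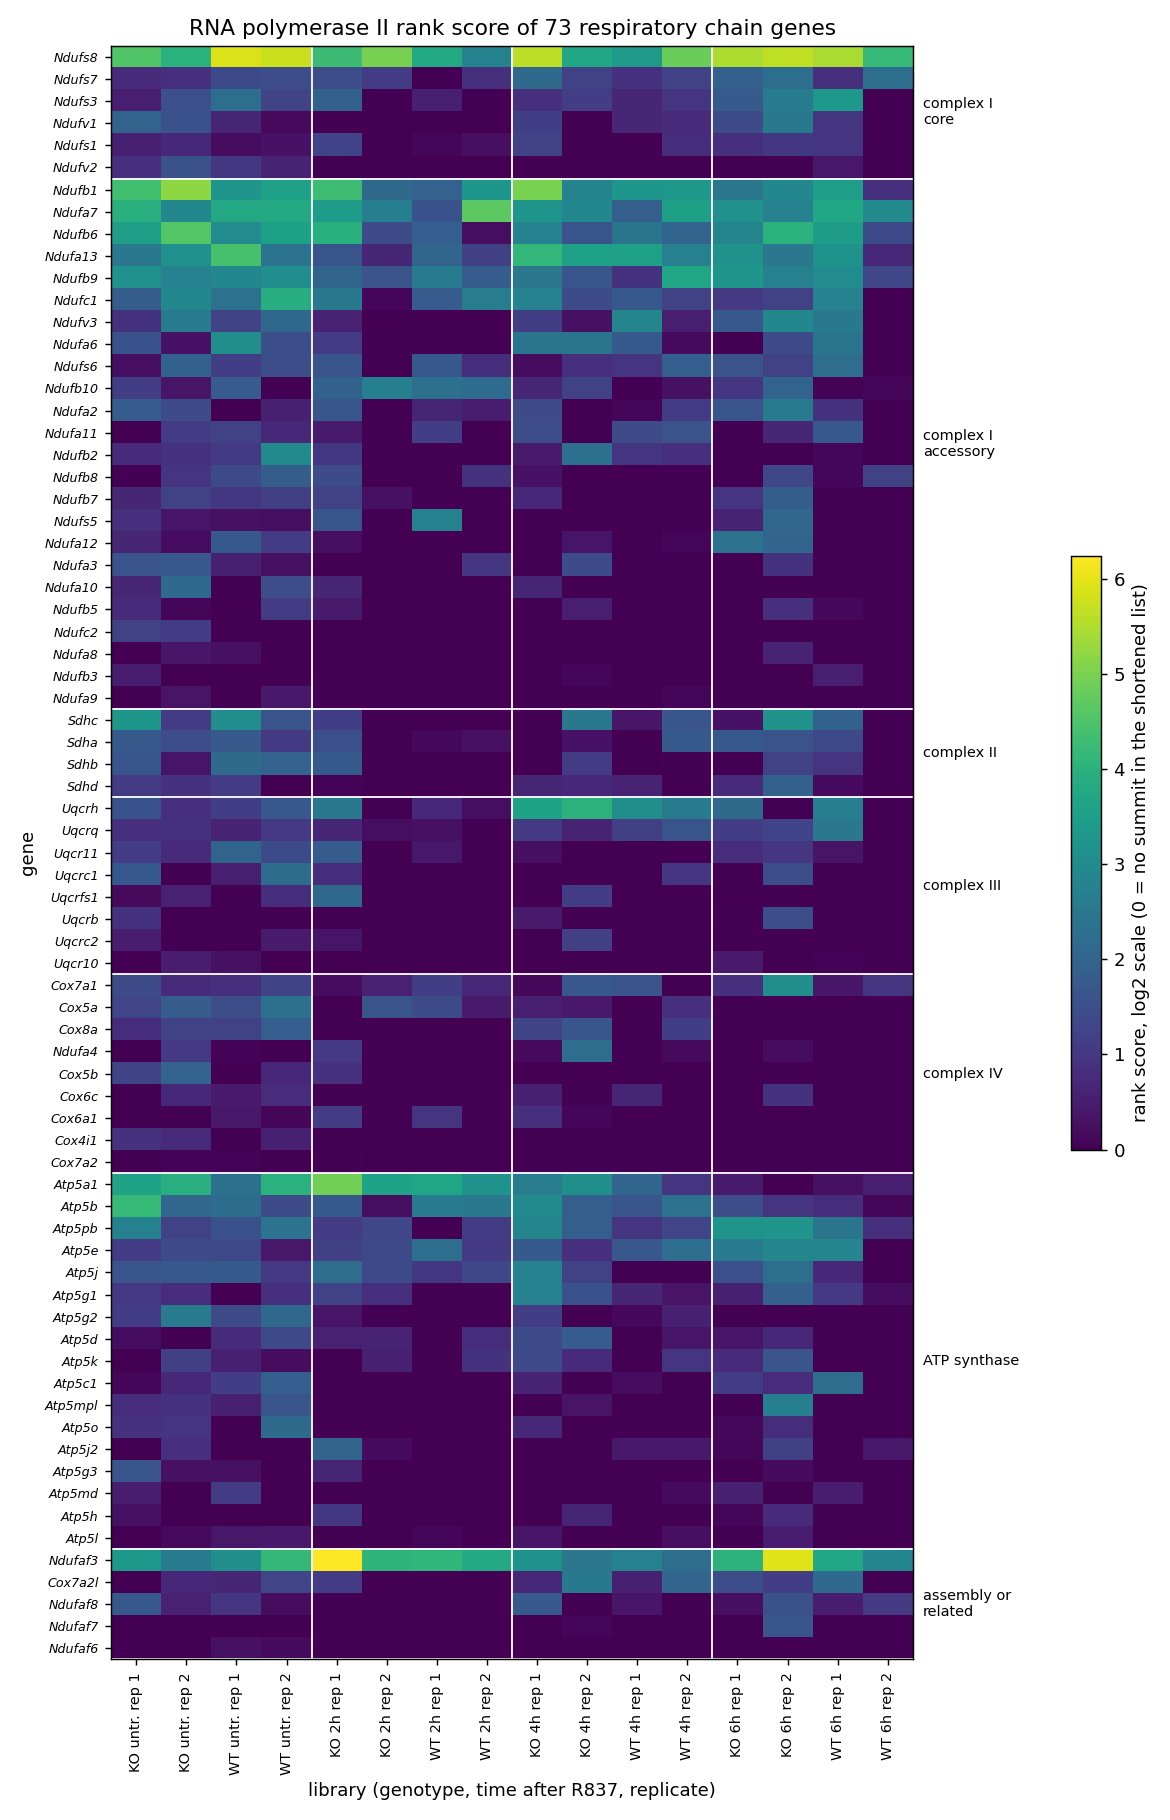
Rank score (log2 scale, 0 where no summit was among the 8394 best) of 73 of the 74 respiratory chain genes tested, one row per gene by complex and one column per library, ordered by time with KO left of WT. Ndufs8 and Ndufaf3 are bright in all libraries, and many rows that are coloured in the untreated columns are dark after R837.

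A summit among the 8394 best of all 16 lists was found for 9 genes, among them Ndufs8, Ndufaf3, Ndufb1, Ndufa7, Ndufb6, Ndufa13, Ndufb9 and Atp5b. Their scores were not high in every list: Atp5b ranked as low as 7959 and Ndufb6 as low as 7189, while Ndufs8 and Ndufaf3 stayed at 1260 and 1801 or better. Of the 9, 6 shared the best summit with a neighbour in all 16 lists: Ndufs8 with Aldh3b1, Ndufaf3 with Dalrd3, Ndufb1 with Cpsf2, Ndufa7 with Rps28, Ndufa13 with Tssk6 and Ndufb9 with Tatdn1.

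Ndufs8, an iron-sulfur subunit of the complex I core (chr19:3908863-3912774), ranked 361 and 529 in untreated KO and 140 and 157 in untreated WT libraries. At 2 h it ranked 430 and 270 in KO and 603 and 1260 in WT, at 4 h 172 and 637 in KO and 823 and 293 in WT, and at 6 h 189 and 167 in KO and 191 and 459 in WT. In 15 of 16 libraries the summit lay 77 to 172 bp downstream of the Ndufs8 start, past the 3′ end of the sequence shown. Treated and untreated ranks overlapped, and the change in rank score was −0.54 ± 0.44 (SE, 12 treated against 4 untreated libraries, limma adjusted p = 0.363).

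Ndufaf3, an assembly factor of complex I (chr9:108565587-108567436), ranked 830 and 1388 in untreated KO and 992 and 474 in untreated WT libraries. At 2 h it ranked 111 and 505 in KO and 484 and 618 in WT, at 4 h 922 and 1516 in KO and 1277 and 1801 in WT, and at 6 h 518 and 137 in KO and 624 and 1180 in WT. The groups overlapped (change 0.48 ± 0.47, limma adjusted p = 0.447). The other named gene of that class, Cox7a2l, which is known for joining complexes III and IV into supercomplexes, had ranks of 1448 to 5771 in 8 treated lists and 3401 to 5273 in 3 untreated lists, and its change was 0.30 ± 0.47 (limma adjusted p = 0.636).

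Complex II is the succinate dehydrogenase that also serves the tricarboxylic acid cycle. Sdhc, a membrane anchor subunit (chr1:171129157-171150640), ranked 846 and 3865 in untreated KO and 1013 and 2769 in untreated WT libraries. It had ranks of 931 to 6840 in 7 treated lists and no summit in the other 5. The ranks overlapped, and the change of −1.35 ± 0.65 did not pass (limma adjusted p = 0.123). Sdha, the flavoprotein subunit that oxidises succinate (chr13:74322255-74350240), ranked 2516 and 3022 in untreated KO and 2494 and 4054 in untreated WT, and 2465 to 7673 in 8 treated lists, so that ranks overlapped (change −0.78 ± 0.40, limma adjusted p = 0.145).

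In complex III, Uqcrh, the acidic hinge subunit (chr4:116066965-116075070), ranked 2832 and 4669 in untreated KO and 3820 and 2577 in untreated WT libraries. Uqcrq, a small subunit, ranked 4559 to 4596 in untreated KO and 4095 to 5483 in untreated WT libraries and 1513 to 7134 in 10 treated lists (change 0.03 ± 0.38, limma adjusted p = 0.965), always together with Gdf9. In ATP synthase, Atp5b, the catalytic beta subunit (chr10:128083307-128090388), kept a summit in all 16 lists. It ranked 463 and 2028 in untreated KO and 1821 and 3058 in untreated WT, 2457 and 7188 in KO and 1392 and 1492 in WT at 2 h, 1052 and 2250 in KO and 2699 and 1650 in WT at 4 h, and 3031 and 4358 in KO and 4733 and 7959 in WT at 6 h. Treated and untreated ranks overlapped at each time, although 3 of the 4 ranks at 6 h lay beyond all untreated ones. The change was −1.64 ± 0.54 at 6 h (limma adjusted p = 0.0349) and, over all times, −0.87 ± 0.44 (limma adjusted p = 0.14).

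Some genes were at 0 throughout. No summit among the 8394 best was found for 16 of the 96 genes, a further 6 had one in a single list, and 7 had none even in the full deposited lists. Most isoforms of complex IV known from other tissues belonged there. Cox6a2 and Cox8b (heart and skeletal muscle) and Cox6b2, Cox7b2 and Cox8c (testis) had no summit in any deposited list, and Cox4i2 (lung) had one in a single deposited list. Cox7a1, also known from heart and skeletal muscle, was the exception. It held a summit in all 16 deposited lists and in 15 of the 16 shortened ones, and its best summits were in no other gene's region. Cox7a1 (chr7:30184171-30186030) ranked 3117 and 5043 in untreated KO and 4628 and 3484 in untreated WT. At 2 h it ranked 7262 and 5644 in KO and 3740 and 5203 in WT, at 4 h 7695 and 2582 in KO and 2764 and none in WT, and at 6 h 4694 and 985 in KO and 6513 and 4415 in WT. Treated and untreated ranks overlapped (change −0.13 ± 0.45, limma adjusted p = 0.838). Cox7a2, its widely expressed counterpart, had a summit in 11 of the 16 deposited lists. It had ranks of 8020, 8085 and 8122 in 3 shortened lists, near their end. A summit is not a transcript, and whether Cox7a1 RNA was made was not measured.

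The 3 genes on the X chromosome were also missing from the test. Ndufa1, Ndufb11 and Cox7b, subunits of complexes I and IV, had no summit in a shortened list and were found in 1, 1 and 4 of the 16 deposited lists. On the X chromosome 11.9% of 966 genes were tested, against 40.5% of 20665 genes on autosomes and 74 of 93 respiratory genes on autosomes (79.6%). The sex of the mice is not given in the labels, and the cause of the lower share on the X chromosome was not tested.

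After R837, 12 of the 74 genes tested fell and 0 rose (limma, Benjamini-Hochberg adjusted over 8475 genes, threshold 0.05), with 20 at an unadjusted p under 0.05. Among all 8475 genes 29.4% were called lower and 5.77% higher, so 16.2% of the respiratory genes called lower is not more than the background. Their median change was −0.34, beside −0.33 over all genes. The 12 were Atp5g2, Atp5a1 and Atp5o of ATP synthase, Cox5a, Cox8a, Cox5b and Cox4i1 of complex IV, Ndufa10, Ndufv2 and Ndufc2 of complex I, Sdhb of complex II and Uqcr11 of complex III. Of these, 10 had no best summit in another gene's region, as had 36 of the 74 tested. Genes with a summit only in one kind of library had to differ: Ndufc2, Cox4i1 and Ndufaf6 had none in any treated list and Ndufaf7 none in any untreated list.

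**Figure D4:**
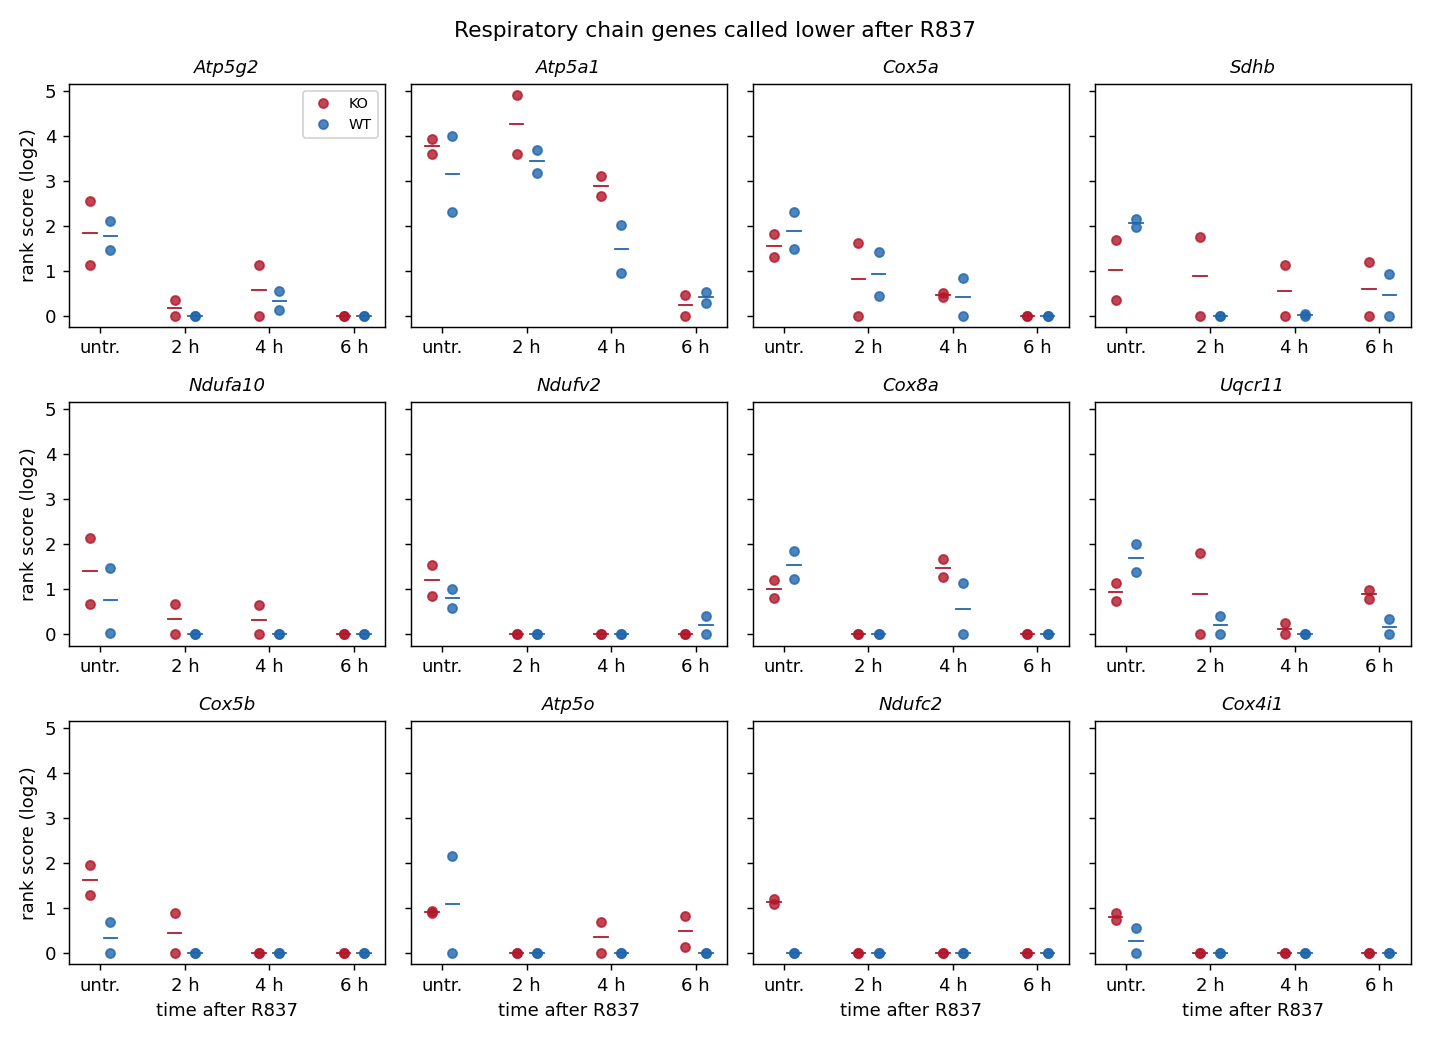
Rank score (log2 scale) of the 12 respiratory chain genes called lower after R837, with points for single libraries and short lines for the mean of 2, KO left of WT at each time. Many treated points lie at 0, which means no summit among the 8394 best, and all 4 points of Atp5a1 at 6 h lie below its other points.

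The largest fall was that of Atp5g2, which encodes a copy of the membrane ring subunit c of ATP synthase (chr15:102662868-102671047). It ranked 3812 and 1436 in untreated KO and 3059 and 1963 in untreated WT libraries. At 2 h it ranked 6630 and none in KO and had no summit in WT, at 4 h it ranked 3823 and none in KO and 7651 and 5773 in WT, and at 6 h it had no summit in any of the 4 libraries. All treated values lay below all untreated ones, and the rank score changed by −1.63 ± 0.30 (SE, limma adjusted p = 0.00115). The sister genes Atp5g1 and Atp5g3, which encode the same mature subunit, had changes of 0.26 ± 0.35 and −0.48 ± 0.19 that did not pass (limma adjusted p = 0.587 and 0.0695). Differences between the 3 copies were not tested.

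Atp5a1, the alpha subunit of the catalytic head (chr18:77773768-77782869), fell at 6 h. It ranked 691 and 551 in untreated KO and 1693 and 527 in untreated WT, 279 and 697 in KO and 649 and 931 in WT at 2 h, 1335 and 970 in KO and 2061 and 4363 in WT at 4 h, and 6107 and none in KO and 6868 and 5791 in WT at 6 h. The 2 h ranks overlapped with the untreated ones, and no 6 h value reached any of them. Its change was −3.14 ± 0.48 at 6 h (limma adjusted p = 0.000422) and −1.34 ± 0.39 over all times (limma adjusted p = 0.017). In 10 libraries the best summit also lay in the region of Haus1. These were all 4 untreated libraries, 3 at 2 h and 3 at 4 h, and none at 6 h. With summits of 1 gene region only, the change was 0.27 at 6 h (limma adjusted p = 0.651) and 0.47 over all times (limma adjusted p = 0.273), the opposite direction in both. Signal from Atp5a1 and from Haus1 cannot be told apart there. The call over all times was lost without replicate 2 of untreated WT (−0.92, limma adjusted p = 0.101) or of untreated KO (−1.26, limma adjusted p = 0.064).

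Ndufv2, a core subunit of complex I that holds an iron-sulfur cluster (chr17:66078795-66101559), ranked 4609 and 2882 in untreated KO and 4160 and 5568 in untreated WT. In the 12 treated libraries it had a summit in 1, at rank 6331 in replicate 1 of WT at 6 h. The groups did not overlap (change −0.97 ± 0.15, limma adjusted p = 0.00029), and the change was −1.14 to −0.80 in fits that left out 1 library. Ndufv2 met the filter only through its untreated summits, and its many treated scores of 0 narrow the spread. The direction was thus set in part by the filter, and the p-value adds little to the ranks. Ndufa10, an accessory subunit (chr1:92439486-92473825), ranked 5234 and 1901 in untreated KO and 8144 and 3010 in untreated WT, and 5277 and 5364 in 2 treated KO libraries with no summit in the other 10. These ranks overlapped with that of 8144 (change −0.98 ± 0.29, limma adjusted p = 0.019), and the call was lost without replicate 2 of untreated WT (−0.62) or of untreated KO (−0.61).

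Cytochrome c oxidase, complex IV, had 4 genes among the 12, out of 9 tested. This is to be read beside the 29.4% of all genes tested that were called lower, and complexes were not tested against each other. Cox5a (chr9:57517328-57532427) ranked 3422 and 2377 in untreated KO and 3011 and 1697 in untreated WT. It ranked none and 2741 in KO and 3126 and 6164 in WT at 2 h, 5883 and 6282 in KO and none and 4719 in WT at 4 h, and had no summit at 6 h. The ranks overlapped at 2 h and no longer at 4 h or 6 h (change −1.29 ± 0.35, limma adjusted p = 0.0115), and the call was lost without replicate 2 of untreated WT (−1.08) or of untreated KO (−1.16). Cox8a (chr19:7215158-7217616) ranked 4770 and 3619 in untreated KO and 3571 and 2322 in untreated WT, 3479 and 2622 in KO and none and 3789 in WT at 4 h, and had no summit at 2 h or 6 h. Its 4 h ranks lay among the untreated ones (change −0.94 ± 0.26, limma adjusted p = 0.0125). Cox5b and Cox4i1 changed by −0.91 ± 0.19 (limma adjusted p = 0.00254) and −0.54 ± 0.09 (limma adjusted p = 0.000698). Cox5b ranked 2148 to 5217 in 3 untreated lists and 4502 to 8365 in 2 treated lists, with overlap. Its change was called in KO (−1.48 ± 0.27, limma adjusted p = 0.00205) and not in WT (−0.34 ± 0.27, limma adjusted p = 0.394). The KO and WT changes of Cox5b were not called different (limma adjusted p = 0.247). Cox4i1, whose 3 best summits also lay in the Emc8 region, had a summit at ranks 4552 and 5048 in untreated KO and 5726 and none in untreated WT and in no treated library. A fall of Cox4i1 was thus fixed by the filter, and its p-value adds nothing to the ranks.

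The remaining calls rested on few libraries. Sdhb, the iron-sulfur subunit of complex II (chr4:140961271-140979198), ranked 2619 and 6602 in untreated KO and 1887 and 2144 in untreated WT, and 2483 to 8121 in 5 treated lists, with overlap. In 3 of the 4 untreated libraries its best summit lay 3483 to 3560 bp inside the gene (change −1.12 ± 0.40, limma adjusted p = 0.0445). Its call held only without replicate 2 of untreated KO, replicate 1 of KO at 2 h, replicate 2 of KO at 4 h, replicate 1 of WT at 6 h or replicate 2 of KO at 6 h. Without any of the other 11 libraries it was lost, with changes of −1.16 to −0.78. Uqcr11, a small subunit of complex III (chr10:80402997-80406821), ranked 3809 and 4981 in untreated KO and 2071 and 3195 in untreated WT, and 2394 to 7077 in 6 treated lists (change −0.94 ± 0.31, limma adjusted p = 0.0324). It lost the call without either replicate of untreated KO (−0.85 and −1.04), replicate 1 of untreated WT (−0.79), replicate 2 of WT at 2 h (−0.91), of KO at 4 h (−0.92) or of WT at 6 h (−0.92). Atp5o, a stalk subunit of ATP synthase, changed by −0.86 ± 0.30 (limma adjusted p = 0.0413). Its call held without replicate 1 of untreated WT (−1.40), of KO at 4 h (−0.92) or replicate 2 of KO at 6 h (−0.92), and was lost without any of the other 13 libraries (−0.87 to −0.32).

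The falls were smaller when genes were ranked in place of summits. When each gene was given 1 rank, counting genes instead of summits, the median change over all genes tested was 0.04 in place of −0.33. For the 48 respiratory genes tested both ways the median was 0.05 with 1 rank per gene and −0.52 with summits ranked, and 18 against 35 of them lay below 0. With 1 rank per gene 0 of the 48 were called lower (12% of 5226 genes tested) and 1, Uqcrh, was called higher (8.0%), with 5 at an unadjusted p under 0.05. Of the 12 genes named above 6 could be tested that way, and all 6 stayed below 0 without passing. They were Atp5a1 (−0.57), Atp5g2 (−0.33), Sdhb (−0.20), Cox5a (−0.09), Uqcr11 (−0.05) and Cox8a (−0.01). Relative to the median of all genes, the fall of Atp5g2 was −1.30 with summits ranked and −0.37 with 1 rank per gene, and that of Atp5a1 −1.01 and −0.61. These pairs, too, are on unlike scales.

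**Figure D5:**
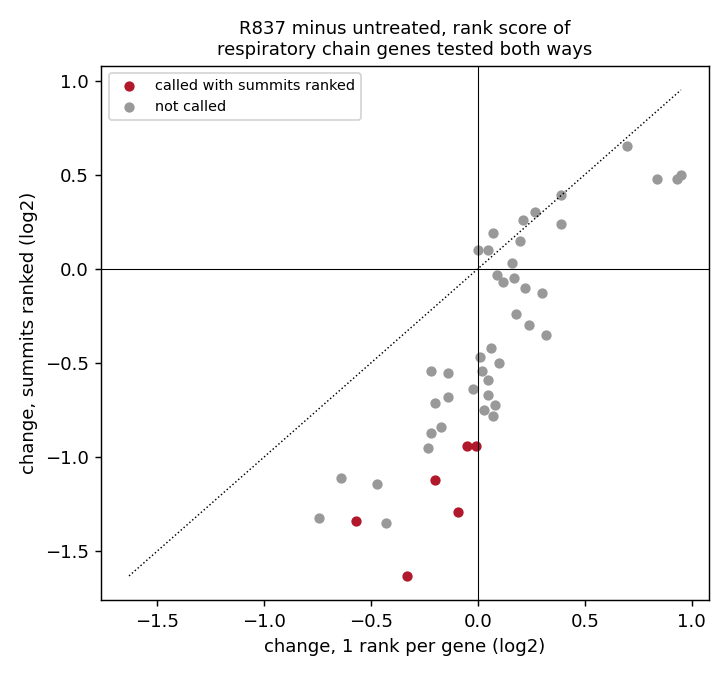
Change in rank score (R837 minus untreated, log2 scale) of the 48 respiratory chain genes tested both ways, with 1 rank per gene on the horizontal axis and summits ranked on the vertical axis. The dotted line marks equal values, red points are the 6 genes called lower with summits ranked, and most points lie below the line, with 35 below 0 vertically and 18 below 0 horizontally. The horizontal score is 0 beyond gene rank 2693 and the vertical one beyond summit rank 8394, so the scales differ.

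The plot of both changes shows the shift as points lying below the diagonal. With only summits within 1 kb of a gene end ranked, 55 respiratory genes were tested, and Atp5g2 alone was called, lower (12.3% of 5692 genes lower, 5.2% higher).

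By time, the 2 h comparison is the only one within a series of codes. At 2 h 8 respiratory genes were called lower (background 24.1%) and 1 higher (4.84%), at 4 h 8 lower (19.7%) and 1 higher (5.71%), and at 6 h 11 lower (23.2%) and 0 higher (6.32%). Median changes were −0.48, −0.32 and −0.18, beside −0.40, −0.31 and −0.27 over all genes. The balance was not towards falls when genes were ranked in place of summits. At 2 h 0 of 48 genes were then called lower (9.55%) and 2 higher (8.25%), at 4 h 0 lower (9.22%) and 1 higher (7.75%), and at 6 h 1 lower (11.7%) and 1 higher (9.61%). Atp5g2, Ndufv2, Cox5b, Cox4i1 and Ndufc2 were called at each of the 3 times. For Cox4i1 (−0.54) and Ndufc2 (−0.57), without a summit in any treated list, the change is the same value at each time. Their recurrence was thus fixed by the filter and is not a result. Ndufv2, which met the filter only through untreated summits, had no summit at 2 h or 4 h and changed by −1.0 at both. Its fall at those times was fixed by the filter as well. The 2 h count was 5 without replicate 1 or 2 of WT at 2 h. The 4 h count was 4 without replicate 1 of WT at 4 h and 5 without replicate 1 of untreated KO or either replicate of KO at 4 h. The 3 comparisons use the same untreated libraries, and no test was made between times. Among KO macrophages 6 genes were called lower over the 3 times (14.3%) and 0 higher (3.86%), and in WT 8 lower (18.4%) and 0 higher (3.76%). The WT count was 4 without replicate 2 of untreated WT and 5 without replicate 2 of WT at 6 h. Atp5g2 and Ndufv2 were called in both genotypes. Ndufv2 had no summit in any treated KO list, so its fall in KO was fixed by the filter. The WT count includes Ndufaf6, which had summits in untreated WT lists only. The KO count includes Ndufc2 and Cox4i1, which had none in any treated list. A fall of these genes was fixed by the filter.

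The 2 genes that rose at a single time did so on shared peaks. Uqcrh ranked 696 and 524 in KO and 993 and 1393 in WT at 4 h, above its untreated ranks, for a change of 2.00 ± 0.69 (limma adjusted p = 0.0475). At 2 h it ranked 1478 and none in KO and 5213 and 7197 in WT, and at 6 h 1868 and none in KO and 1330 and none in WT. In all 13 lists with a summit that peak also lay in the region of Lrrc41, the gene on the other strand of the same promoter. The 4 h call held without either replicate of KO at 2 h, of WT at 6 h or of KO at 6 h and was lost without any of the other 10 libraries (changes of 1.82 to 2.18). Ndufb10, an accessory subunit of complex I, ranked 2192 and 1290 in KO and 1711 and 1847 in WT at 2 h, and 3813 and 6710 in untreated KO and 2439 and none in untreated WT. Its change at 2 h was 1.47 ± 0.45 (limma adjusted p = 0.0263), on a peak in the Rps2 region. With summits within 500 bp of its own start the change was −0.59 (limma adjusted p = 0.332). The call was lost without replicate 2 of untreated WT (1.02), of untreated KO (1.26) or of KO at 2 h (1.28), or without replicate 1 (1.44) or 2 (1.5) of WT at 2 h.

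Loss of N4bp1 came with few differences at these genes. In untreated macrophages 1 of 74 was called higher in KO (0.649% of all genes) and 0 lower (0.72%), with 9 at an unadjusted p under 0.05. At 2 h 0 were called in limma (0.0118% of all genes higher, 0.059% lower) and 0 had an unadjusted p under 0.05. At 4 h 0 were called in limma (0.165% higher, 0.236% lower), with 4 at an unadjusted p under 0.05. At 6 h 1 was called higher (1.13%) and 0 lower (0.189%), with 10 at an unadjusted p under 0.05. Over the 3 treated times 0 were called in limma (0.448% higher, 0.295% lower), with 8 at an unadjusted p under 0.05. Median differences were 0.00, 0.14, 0.20 and 0.40 from untreated to 6 h, and 0.00, 0.00, 0.00 and 0.13 over all genes. With 1 rank per gene the medians were 0.00, 0.00, 0.02 and 0.00, and with only summits near gene ends ranked 0.00, 0.03, 0.11 and 0.01. With so few libraries a gene that missed the threshold is not shown to be equal in KO and WT. The 6 h count was 6 without replicate 1 of KO at 6 h, a fit whose only KO library at 6 h is the one that stood apart, and 0 without either replicate of WT at 6 h. Without replicate 2 of untreated WT the untreated count was 3. Over the treated times, the count was 2 when KO 6 h replicate 1 was left out and 1 when KO 4 h replicate 2 was.

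The gene called at 6 h was Ndufa12, an accessory subunit of complex I (chr10:94199035-94221440). At 6 h it ranked 1633 and 2050 in KO and had no summit in WT, a difference of 2.20 ± 0.38 (limma adjusted p = 0.0138). Untreated it ranked 5283 and 7221 in KO and 2541 and 3937 in WT, the opposite order. At 2 h it ranked 7154 and none in KO and had no summit in WT, and at 4 h none and 6602 in KO and none and 7889 in WT. Its summits lay within 500 bp of its own start and in no other gene's region. With 1 rank per gene it was also called at 6 h. The call was lost without replicate 1 (limma adjusted p = 0.0736) or 2 (limma adjusted p = 0.067) of WT at 6 h, with the difference still 2.20. Fitted on the 6 h libraries alone, the difference was not called (limma adjusted p = 0.442).

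The gene called in untreated cells was Ndufc2, an accessory subunit of complex I (chr7:97400003-97407800). It ranked 3658 and 3926 in untreated KO and had no summit in untreated WT or in any treated library. The difference was 1.15 ± 0.12 (limma adjusted p = 0.00157), with a rank score of 0 in 14 of 16 libraries and thus almost no spread. Since Ndufc2 entered the test only through these 2 untreated KO summits, a difference was fixed by the filter, and the call does not support one. In the full deposited lists Ndufc2 had a summit in 5 of 16 libraries, and with those lists the difference was 1.2 and not called (limma adjusted p = 0.262). Fitted on the untreated libraries alone it was not called either (limma adjusted p = 0.908). With the 4000 best summits it was 0.08 (limma adjusted p = 0.684). Ndufc2 was also the 1 respiratory gene whose change after R837 was called different in KO and WT, lower in KO (0.378% of all genes lower, 0.555% higher).

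Lists of other mitochondrial genes were read the same way. In each list the share of tested genes called lower after R837 is to be read beside 29.4% over all genes, and the share called higher beside 5.77%. Of 13 tricarboxylic acid cycle genes tested 4 fell and 0 rose (median −0.48), among them Ogdh, a subunit of the 2-oxoglutarate dehydrogenase complex (−1.6 ± 0.25, limma adjusted p = 0.000296). Of 32 assembly factors outside the symbols used here 9 fell and 0 rose (median −0.46), such as Coa6 (−1.45 ± 0.30, limma adjusted p = 0.00248) and Sco1 (−1.44 ± 0.31, limma adjusted p = 0.00314), which deliver copper to complex IV. Cytochrome c and electron carrier genes had 5 falls and 1 rise among 12 (median −0.39). The rise was that of Pdss1, which builds the side chain of ubiquinone (1.51 ± 0.36, limma adjusted p = 0.0058). Pdss1 ranked 4452 to 6689 in the 4 untreated libraries and 460 to 4608 in the 12 treated ones, overlapping at the edge. The mitochondrial ribosomal proteins had 18 falls and 4 rises among 66 (median −0.32). Outside the mitochondria, cytosolic ribosomal proteins had 7 falls and 1 rise among 78 (median −0.01) and proteasome subunits 3 falls and 2 rises among 38 (median −0.09). With 1 rank per gene the falls were 0 in the cycle, 2 among assembly factors, 1 among carriers, 3 among mitochondrial ribosomal proteins, 4 among cytosolic ribosomal proteins and 1 among proteasome subunits. The rises, in the same order, were 0, 1, 1, 3, 3 and 2. Over all 5226 genes tested that way 12% were called lower and 8.0% higher. How many genes of each list were tested that way is not given here, so the drop in falls is no result about these lists.

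Among 10 regulators of mitochondrial biogenesis tested, 2 fell (29.4% of all genes) and 0 rose (5.77%), with a median of −0.22. Gabpb1, the partner subunit that lets GABP activate transcription, ranked 212 and 128 in untreated KO and 190 and 231 in untreated WT. It ranked 875 and 1401 in KO and 919 and 533 in WT at 2 h, 1601 and 1483 in KO and 1934 and 606 in WT at 4 h, and 6003 and none in KO and 3808 and none in WT at 6 h. No treated value reached an untreated one, and the change was −3.38 ± 0.38 (limma adjusted p = 3.08e-05). Nrf1, which binds the NRF1 motif, ranked 1025 to 3396 in untreated libraries and 1336 to 6990 in 8 treated libraries, with none at 6 h (change −1.19 ± 0.40, limma adjusted p = 0.0356). Gabpb1 was still called lower with 1 rank per gene (−2.66 ± 0.29, limma adjusted p = 3.27e-05) and Nrf1 was not (−0.27 ± 0.30, limma adjusted p = 0.556). Gabpa, whose peaks were those of Atp5j, did not pass (−0.35 ± 0.35, limma adjusted p = 0.457). Ppargc1a, the coactivator PGC-1alpha, and Tfam, which acts on mitochondrial DNA, were not among the genes tested.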

How the data were processed

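Per the labels' protocols, libraries were read on a NextSeq 500 (single-end, 75 nt). GSNAP, MACS2 and GRCm38 are named in the submitters' processing notes; versions, thresholds and controls are not given in the sources used here. The authors deposited 1 list of 1 bp summits per library, each with a −log10 score (whether of p or q is not stated); replicates were not pooled. The score served only to rank summits within a list.

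Each of the 16 lists was shortened to its 8394 best summits. Rank scores of 8475 genes (a summit in at least 2 lists) entered 1 limma fit (limma 3.58.1, R 4.3.3) with group means, empirical Bayes moderation with a trend in variance, and Benjamini-Hochberg adjustment; errors are SE. The fit was tested on simulated data. The members, gene lists and motifs were chosen with earlier results of these data known. Values per library are given for the 2 genes per complex with the highest mean rank score, the 8 largest called changes and genes called between genotypes, of which 1 gene is not reported here. Genes called higher at 1 time, the other calls and Gabpb1 were added after their values were seen. Starts and promoters came from RefSeq (GRCm38.p6).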

Additional observations from a re-analysis of the deposited data

Results flagged for a closer look

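The response of Ndufc2, an accessory subunit of complex I, was called different between genotypes, a call that the filter on summits had fixed. The change after R837 in KO minus that in WT was −1.15 ± 0.14 (SE, limma adjusted p = 0.00743). Among the 74 respiratory genes it was the only one called (0.378% of all genes called in that direction, 0.555% in the other), with 7 at an unadjusted p under 0.05. Ndufc2 had a summit in both untreated KO libraries and in none of the other 14, so it was tested only because of the 2 lists that set it apart, and the value restates its difference in untreated cells. With lists as deposited, the 4000 best summits, a summit required in 8 lists, 1 rank per gene or only summits near gene ends, 0 respiratory genes were called. Leaving out 1 library gave 0 to 3 respiratory genes called. The count was 0 without replicate 1 of untreated KO, and 3 without replicate 2 of untreated WT or replicate 1 of KO at 6 h.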

How the results depend on the processing

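Read depth is unknown, and ranks carry no amount of polymerase. Shares in brackets are those of all genes tested in the same setting and direction. With lists as deposited, ranks scaled to list length, 33 of 85 respiratory genes were called lower after R837 (49%), 32 in WT (43.6%), 54 at 2 h (60.2%) and 14 at 4 h (26.4%). Between genotypes 3 were higher in KO at 6 h (7.6%) and 2 over the treated times (2.07%), with 0 for the difference in response. With the 4000 best summits 6 of 54 were lower over all times (23%), 4 in WT (14.8%), 2 in KO (13%) and 5 at 6 h (19.3%). The total was 3 at 2 h and 3 at 4 h, each with 2 lower (17.8% and 16.9%) and 1 higher (5.58% and 6.44%), and 0 for the response. With 1 rank per gene the counts were 1 over all times (higher, 8.0%), 1 in WT (lower, 7.31%), 0 in KO, 2 at 2 h, 1 at 4 h, 2 at 6 h, 0 between untreated genotypes and 0 for the response. With only summits near gene ends ranked they were 1 over all times (lower, 12.3%), 0 in WT, 1 in KO (lower, 6.89%), 1 at 2 h (higher, 5.24%; 8.98% lower), 1 at 4 h (higher, 5.17%; 7.92% lower), 1 at 6 h (lower, 11.4%), 0 between untreated genotypes and 0 for the response. Counting summits gave 16 at 2 h, of which 15 were lower (22.1%) and 1 higher (6.78%), and 5 lower at 4 h (13.7%). Between genotypes it gave 2 untreated (1 higher, 0.708%; 1 lower, 0.814%), 0 at 6 h, 1 higher over the treated times (2.14%) and 2 for the response (1 higher, 2.06%; 1 lower, 1.04%). Gene spans without extension gave 5 lower in WT (15.5%), 5 lower at 4 h (17.3%), 2 higher between untreated genotypes (1.23%) and 3 for the response (1 higher, 0.734%; 2 lower, 0.665%). Without a filter 2 genes were called between untreated genotypes (1 higher, 0.823%; 1 lower, 0.823%). Requiring a summit in 8 lists gave 7 of 47 lower over all times (30%), 1 in KO (14.2%), 6 at 6 h (25.3%), 5 at 4 h (4 lower, 19.7%; 1 higher, 8.79%), 0 between untreated genotypes and 0 for the response. With only the compared groups fitted the counts were 5 at 4 h (4 lower, 14.8%; 1 higher, 6.04%), 7 lower at 6 h (17.9%), 0 between untreated genotypes and 0 between genotypes at 6 h. Summits within 500 bp of a start, an alternative chosen after seeing the data, gave 5 lower in WT (15.3%) and 5 lower at 4 h (16.4%). The causes were not tested.

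Leaving out 1 library gave 9 to 15 genes over all times, 4 to 10 in WT, 5 to 6 in KO, 5 to 12 at 2 h, 4 to 10 at 4 h and 9 to 12 at 6 h. Between genotypes it gave 1 to 3 untreated, 0 to 0 at 2 h, 0 to 0 at 4 h, 0 to 6 at 6 h, 0 to 2 treated and 0 to 3 for the response. Where this left 1 library in a group, that library was assumed to vary like the other groups.

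Some uncalled changes turned direction. Counting summits gave 0.02 for Atp5b, −0.25 for Uqcrh, −0.08 for Cox7a2l and −0.17 for Uqcrq. Lists as deposited gave −0.01 for Uqcrh, −0.13 for Cox7a2l and −0.48 for Uqcrq. Cox7a1 was 0.13 with the 4000 best summits, 0.30 with 1 rank per gene, 0.39 near gene ends, and −0.32 to 0.06 in fits without 1 library, with 3 at or above 0 (0.00, 0.04 and 0.06). Sdha was 0.07 with 1 rank per gene. Uqcrq was −0.18 to 0.23 in fits without 1 library, 5 of them below 0 (−0.18, −0.08 and −0.01 in 3). With summits in 1 gene region (chosen after seeing the data) Atp5a1 was 0.47 and Ndufb10 at 2 h −0.18, and with summits within 500 bp of a start Ndufb10 was −0.59.

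Same-numbered libraries showed little shared deviation: over 28 pairs of groups the correlation was −0.11 to 0.179 (median 0.008), above 0.1 in 1 pair. With the replicate block the counts were 12 over all times, 8 in WT, 7 in KO, 9 at 2 h, 9 at 4 h and 11 at 6 h, and between genotypes 1 untreated, 0 at 2 h, 0 at 4 h, 1 at 6 h, 0 treated and 1 for the response. Of the named calls only that of Sdhb was lost under the block.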
